A study of Gallus gallus with 18 samples.

Results

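The comparison described here is that of the end of shell formation with the period of active shell growth in hens that lay hard-shelled eggs. It rests on 6 of the 18 libraries of the series, 3 labelled as the termination period and 3 labelled as the growth period of calcification, all from the high eggshell strength group, and each library was placed by its label alone. All libraries were made from total RNA of the uterus of Hy-Line Brown laying hens, a commercial brown-egg layer, at 42 weeks of age. The other 12 libraries come from the initiation period of the same strength group and from the 3 periods in the low strength group, and they enter as the source of the shared spread and as points of reference. The labels do not say which hen gave which library, and the p-values below therefore speak of the spread among libraries, part of which could be technical. In bulk tissue, fewer cells of a type cannot be told apart from less RNA per cell.

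The uterus of the hen, or shell gland, holds the egg while calcium and bicarbonate ions are moved across its epithelium and laid down as calcium carbonate together with secreted matrix proteins. The labels' growth period is the phase in which the mineral layer thickens, and the termination period is the end of that process, when mineral deposition stops and the cuticle is laid on the shell before the egg is laid. The files identify genes by Ensembl identifier, and loci outside that annotation by a number of the authors, without gene names. No gene could therefore be assigned to a pathway or to a cell type, and the uterine label was not checked against marker genes here.

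The 6 libraries held between 13715855 and 16061908 counts and detected 17771 to 18027 loci of the 20866 in the table. CPM denotes counts scaled to the size of the library, and the 16110 loci above 1 CPM in at least 3 of the 18 libraries were tested. High termination replicate 3 stood apart from the other 5 libraries before any comparison was made. Across tested loci its log2 CPM correlated with termination replicates 1 and 2 at Pearson's r = 0.813 and 0.794, and with the 3 growth libraries at 0.774, 0.803 and 0.797. Termination replicates 1 and 2 correlated with each other at 0.966 and with the growth libraries at 0.935 to 0.956, and the growth libraries correlated among themselves at 0.962 to 0.972. Within the termination group the median SD of log2 CPM per locus was 0.606, against 0.266 within the growth group. Values are therefore given library by library where a result turns on single libraries, and the counts of calls with and without replicate 3.

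A larger share of the RNA in termination replicate 3 came from a small number of loci. Its 252 most abundant loci held 50% of its counts, against 679 and 666 loci in termination replicates 1 and 2 and 623, 777 and 760 loci in the growth libraries. In low strength hens this number was 304, 101 and 152 in the termination libraries, against 621 to 732 in the growth libraries. The 10 most abundant loci took 24.8% of the counts in termination replicate 3, 14.2% and 15.9% in replicates 1 and 2, and 18.2%, 14.8% and 15.8% in the growth libraries. These were mostly loci that were abundant in growth as well, since 7 of the 10 were also among the 10 with the highest mean share there. The 10 loci that led in termination replicate 3 held 12.9% and 13.9% of counts in replicates 1 and 2 and 12.0% to 15.8% in the growth libraries. The same 10 loci held, in low strength hens, 25.3%, 32.0% and 30.4% of counts in the termination libraries, against 12.9% to 15.2% in the growth libraries. None of the 10 was called between termination and growth in the high strength group by edgeR, where 7.66% of all tested loci were. An unadjusted p below 0.05 (edgeR) was found at 3 of the 10, and at 3772 of all 16110. DESeq2 called 2 of the 10 and 2146 of all, and limma-voom 0 and 2166. The library weights of limma-voom gave termination replicate 3 only 0.0482, against 1.31 and 0.643 in replicates 1 and 2. With 10 loci, picked by their level in replicate 3, these counts do not set them apart from all loci. The GC content of the reads was 51.8% in termination replicate 3, 49.3% and 50.01% in replicates 1 and 2, and 49.4% to 50.3% in the growth libraries. In low strength hens it was 50.6%, 53.1% and 52.0% in the termination libraries, against 49.7% to 50.2% in the growth libraries. The part of GC content in the results was not tested.

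**Figure D1:**
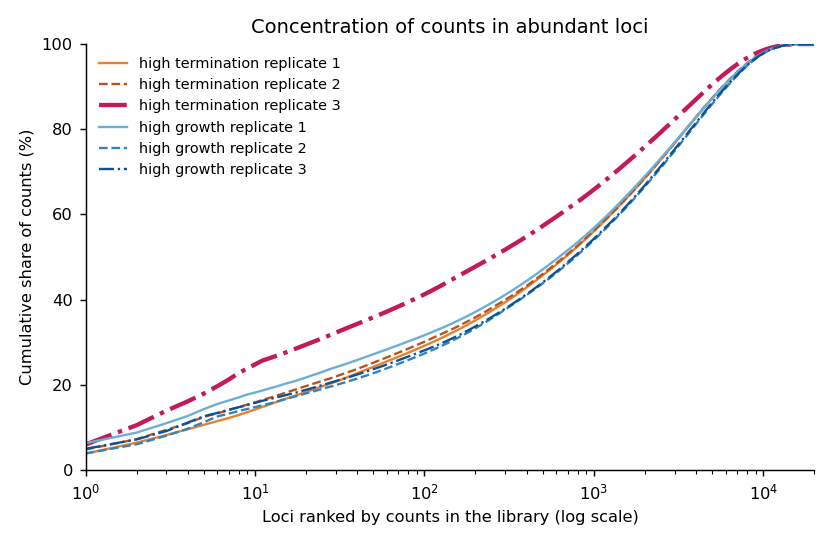
Cumulative share of counts (percent, vertical axis) held by the most abundant loci (rank on a log axis) in each of the 3 high termination and 3 high growth libraries. The curve of termination replicate 3 lies above the other 5, with 50% of its counts in 252 loci against 623 to 777 in the others.

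Taken one at a time, termination replicates 1 and 2 lay close to growth and replicate 3 lay far from it. Relative to the mean log2 CPM of the 3 growth libraries, termination replicate 1 had 1241 loci more than 2-fold higher (7.70% of those tested) and 1106 more than 2-fold lower (6.87%). Replicate 2 had 823 loci higher (5.11%) and 1011 lower (6.28%), and replicate 3 had 3804 higher (23.6%) and 3940 lower (24.5%). These splits are with TMM scaling (trimmed mean of M values) and depend on it: with total-count scaling they were 1099 higher and 1281 lower in replicate 1, 713 and 1160 in replicate 2, and 2587 and 5104 in replicate 3. The median absolute log2 difference was 0.34, 0.30 and 0.95 in termination replicates 1, 2 and 3. Growth replicates 1, 2 and 3, each set against the mean of the other 2, had 1170, 1122 and 800 loci beyond 2-fold and medians of 0.29, 0.31 and 0.20. Replicates 1 and 2 of termination thus had more loci beyond 2-fold than any growth library, with medians close to those of growth replicates 1 and 2, and replicate 3 exceeded all of these on both measures. The reference was a mean of 3 libraries for termination but of 2 for growth, so these values are not strictly comparable.

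Large differences were rarer in replicates 1 and 2 and common in replicate 3. More than 8-fold above the growth mean stood 99 loci in termination replicate 1, 41 in replicate 2 and 319 in replicate 3, and more than 8-fold below it stood 69, 50 and 843. Replicate 3 was the only termination library in which the losses of this size outnumbered the gains by more than 2-fold. The 3 sets of differences are measured from the same growth libraries and are not independent of one another.

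**Figure D2:**
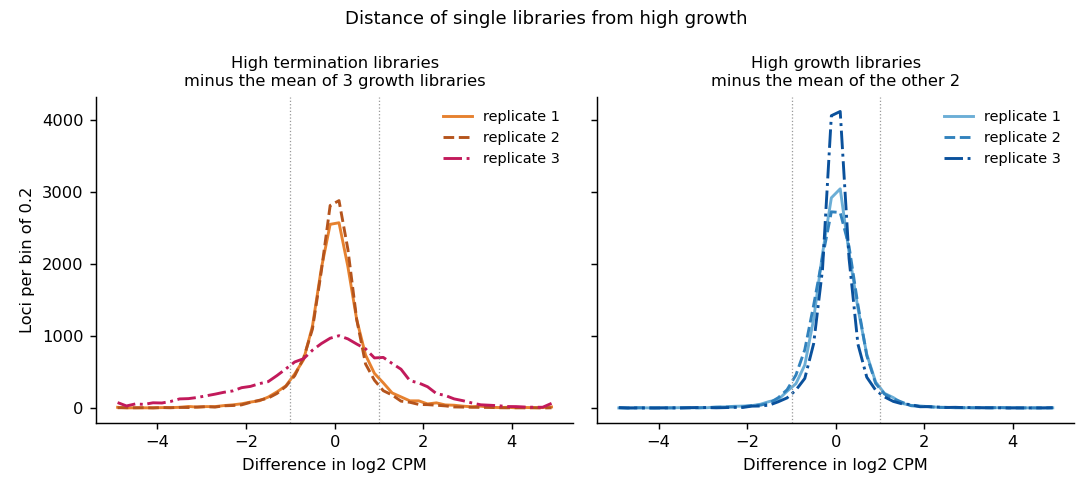
Number of loci (vertical axis, in bins of the log2 CPM difference) by the difference of each high termination library from the mean of the 3 high growth libraries (left) and of each high growth library from the mean of the other 2 (right). Dotted lines mark 2-fold and the end bins collect larger differences; replicates 1 and 2 of termination have narrow peaks, with 2347 and 1834 loci beyond 2-fold, and replicate 3 a broad one, with 7744.

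Across the 3 libraries of each period, 743 loci rose (4.61% of 16110) and 491 fell (3.05%) in termination relative to growth, by edgeR's quasi-likelihood test with Benjamini-Hochberg adjustment over all tested loci and a threshold of 0.05 on the adjusted p. The median fitted log2 change was 1.61 among loci that rose and −1.28 among those that fell, against 0.05 over all loci tested. The fitted change exceeded 2-fold for 578 of the rises and 335 of the falls, 4-fold for 278 and 101, and 8-fold for 115 and 28. Without replicate 3 these counts were 501 and 325, 195 and 103, and 66 and 30. Rises made up 60.2% of the calls when libraries were scaled by TMM. Scaling to total counts lowered that share to 43.0% and placed the median change of all loci at −0.12 log2 units. No locus called with TMM scaling changed sign with total-count scaling.

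**Figure D3:**
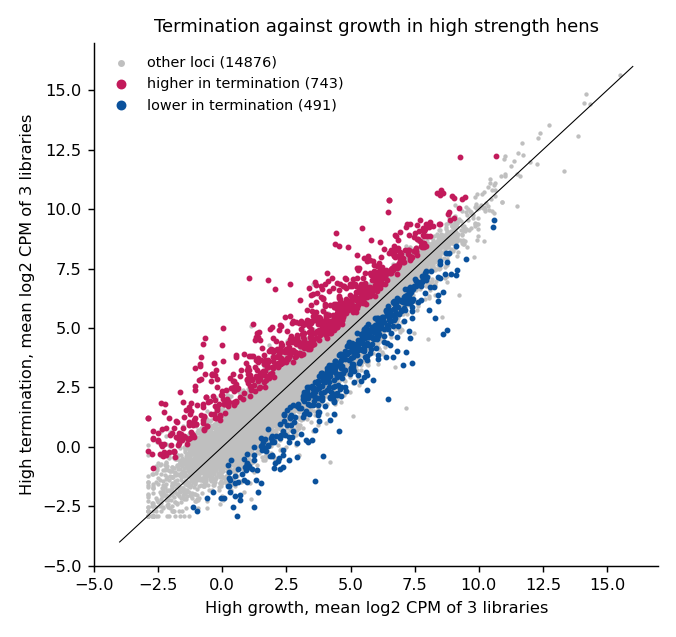
Mean log2 CPM of each tested locus in the 3 high termination libraries (vertical axis) and in the 3 high growth libraries (horizontal axis), with the line of equal values. Red points are the 743 loci called higher and blue points the 491 called lower in termination; grey points were not called.

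The called loci were, for the most part, those on which all 3 termination libraries moved together, although replicate 3 was unlike replicates 1 and 2 over all tested loci. All 3 termination libraries lay above all 3 growth libraries at 674 of the 743 loci that rose and below them at 484 of the 491 that fell. Over all tested loci this was so for 9.81% and 10.4%; the test and this count use the same libraries, so the count is a description of what was called. Among the rises, the median difference from the growth mean was 1.43, 1.03 and 1.80 log2 units in termination replicates 1, 2 and 3. Among the falls it was −1.27, −0.95 and −1.45. Replicate 3 showed the largest of the 3 departures at 431 of the rises and 272 of the falls, replicate 1 at 257 and 163, and replicate 2 at 55 and 56. At 5, 14 and 5 of the loci called as rises, replicates 1, 2 and 3 stood below the growth mean, and no termination library stood above it at any of the 491 loci called as falls.

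The calls were spread over the whole range of expression. Among loci with a mean above 100 CPM over the 6 libraries, 12.6% of 1860 were called, 160 as rises and 75 as falls. The share was 7.65% of 8197 loci between 10 and 100 CPM, 6.55% of 4857 between 1 and 10 CPM, and 4.52% of 1196 below 1 CPM. Without replicate 3 the shares were 13.7%, 7.60%, 6.08% and 2.60% in the same order. Ensembl genes supplied 536 rises and 396 falls among 12727 tested. Among the 3383 numbered loci tested, 207 rose (6.12%) and 95 fell (2.81%), against 4.21% and 3.11% of Ensembl genes. The numbered loci were less abundant, with a median of 4.79 CPM against 25.05 CPM for Ensembl genes, and their median log2 change over all tested was 0.19 against 0.02. Without replicate 3 the classes were closer, with rises at 4.46% of numbered loci and 4.25% of Ensembl genes, falls at 3.09% and 3.15%, and median changes of −0.04 and 0.00. Numbered loci held 9.95% of all counts in termination replicate 3, 8.18% and 7.85% in replicates 1 and 2, and 7.92% to 8.26% in the growth libraries. No contrast between these classes was tested.

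A pair of rises and a pair of falls show the range of behaviour behind the calls, chosen as the largest fitted rises and falls among Ensembl genes that were called, did not overlap between the periods and averaged at least 1 CPM in the higher one. ENSGALG00000015389 had 59, 3 and 118 counts in termination replicates 1, 2 and 3 (4.01, 0.188 and 9.36 CPM) and 0 counts in each of the 3 growth libraries. It was found in every termination library but barely so in replicate 2, whose 3 counts equal the floor used here for a gene without counts. Against that floor in each growth library, its mean of 4.52 ± 4.61 CPM (SD, n = 3) in termination was at least 23.1-fold higher (edgeR adjusted p = 0.00364). The bound is on the mean and does not hold for replicate 2. At 0.188 CPM, replicate 2 lay below the floors in growth replicates 1 and 2, of 0.217 and 0.196 CPM. Without replicate 3 the bound was 10.7-fold (edgeR adjusted p = 0.00686), and without replicate 2 it was 34.2-fold. ENSGALG00000001863 had 1.700, 1.315 and 386 CPM in the termination libraries, and 0.217, 0.523 and 0.345 CPM in the growth libraries. The periods did not overlap, yet its level in replicate 3 was far above that in replicates 1 and 2. The fitted log2 change was 8.44 ± 1.94 (SE; adjusted p = 0.0146, edgeR). Without replicate 3 it was 2.02 and not called (adjusted p = 0.257, edgeR).

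Both named falls were at or near 0 in all 3 termination libraries. They exceeded 1 CPM only in growth libraries, of both strength groups, and so passed the filter through the period in which they were high. ENSGALG00000000803 had 0 counts in each termination library, and 15, 26 and 24 counts (1.087, 1.700 and 1.381 CPM) in the growth libraries. Its growth mean of 1.39 ± 0.306 CPM (SD, n = 3) makes termination at least 6.62-fold lower when the floor of 3 counts stands for each termination library (adjusted p = 0.00229, edgeR; 0.00395 without replicate 3). ENSGALG00000020923 had 0.0680, 0.438 and 0.317 CPM in termination replicates 1, 2 and 3, and 23.8, 9.68 and 7.71 CPM in growth replicates 1, 2 and 3. All termination values lay below all growth values, and replicate 3 was not apart from replicates 1 and 2. The fitted log2 change was −5.59 ± 0.80 (SE; adjusted p = 5.63e-04, edgeR). It was −5.68 without replicate 3, and between −6.14 and −4.94 when any single growth or termination library of either strength group was left out. The same gene had, in low strength hens, 0.226, 0.499 and 0.712 CPM in termination, against 4.24, 14.7 and 2.51 CPM in growth.

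The number of calls depended on how the spread between libraries was taken. In a fit to the 6 libraries alone, 1 locus was called, a fall, and 1590 of 14813 loci had an unadjusted p below 0.05, against 3772 of 16110 in the fit to all 18 libraries (edgeR). That locus, ENSGALG00000019430, is named because it was the single call and was chosen after its values were seen. It had 9.59, 14.9 and 10.6 CPM in termination replicates 1, 2 and 3, and 189, 168 and 144 CPM in the growth libraries. The termination values were close to each other, replicate 3 included, and far below those of growth, which its choice by a test on these libraries favours. The fitted log2 change was −3.84 ± 0.28 in the fit to 6 libraries (SE; adjusted p = 0.0437, edgeR) and −3.83 in the fit to 18 (adjusted p = 2.02e-06, edgeR), where it was −3.77 without replicate 3. The fit to 18 libraries takes part of its spread from groups that varied less than the termination group, so its adjusted p-values may be too small here.

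Leaving out termination replicate 3 changed which loci were called more than how many. Without it, 690 loci rose and 504 fell, of which 490 and 350 were also called with it. At 4 of the loci called with replicate 3, the fitted change had the opposite sign without it. Without replicate 1 there were 800 rises and 359 falls, of which 585 and 312 were shared with the full comparison. Without replicate 2, the library nearest to growth, the count went up to 1428 rises and 757 falls. Removal of growth replicates 1, 2 and 3 left 709, 710 and 748 calls in all, against 1234. In these fits 399 rises and 271 falls were called whichever termination library was left out, and 319 rises and 187 falls whichever of the 6 was left out. All of these fits still took part of their spread from the other groups. The fit to the 9 high strength libraries called 361 loci, and that to the 6 libraries 1. Set singly against the growth libraries, in fits that assume the lone library to vary like the other groups, termination replicate 1 gave 631 rises and 342 falls, replicate 2 gave 284 and 123, and replicate 3 gave 4135 and 4050. These 3 counts share their growth libraries.

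The loci on which replicate 3 alone departed form a larger set than the called ones. Termination replicate 3 lay more than 2-fold above the highest of the other 5 libraries at 2069 loci and more than 2-fold below the lowest at 2612, together 29.1% of those tested. For the other 5 libraries the same count came to 210 and 212 in termination replicates 1 and 2 and to 176, 103 and 87 in growth replicates 1, 2 and 3. The comparison of periods, which uses the same libraries, called 153 rises among the 2069 (7.39%, against 4.61% of all tested loci) and 49 falls among the 2612 (1.88%, against 3.05%). The low strength libraries entered the choice of these loci only through the 1 CPM filter and the scaling. In the low strength group, 1753 of the 2069 (84.7%) rose in termination relative to growth and 2358 of the 2612 (90.3%) fell (edgeR quasi-likelihood test). Of all tested loci, 27.3% rose and 27.9% fell there.

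The level of these sets in each library is given next. The choice of the loci fixed that replicate 3 stands apart from the other 5 high growth and termination libraries. The low strength and initiation libraries entered it through the 1 CPM filter and the scaling. The 2069 loci had a median of 4.69 log2 CPM in high termination replicate 3, 2.68 and 2.53 in replicates 1 and 2, and 2.50 to 2.59 in the high growth libraries. Their median in low strength hens was 3.95, 4.74 and 4.47 in the termination libraries, against 2.59 to 2.61 in the growth libraries. The 2612 loci had a median of 1.83 log2 CPM in high termination replicate 3, 4.56 and 4.64 in replicates 1 and 2, and 4.44 to 4.67 in the high growth libraries. They had, in low strength hens, 2.80, 1.74 and 1.92 in termination, against 4.55 to 4.64 in growth. On both sets the low strength termination libraries lay on the same side of the low strength growth libraries as replicate 3 did of high growth. At high initiation, the medians were 3.65 to 4.005 for the first set and 2.51 to 3.07 for the second, between those of high growth and those of replicate 3.

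On the called loci all 3 high termination libraries were displaced from growth in the same direction, as the choice of these loci by the same test requires of most of them. The median of the 743 rises was 4.36 to 4.45 log2 CPM in the high initiation libraries, 3.61 to 3.84 in high growth, and 5.17, 4.804 and 5.54 in high termination replicates 1, 2 and 3. That of the 491 falls was 4.47 to 4.55 at high initiation, 4.88 to 5.01 in high growth, and 3.50, 3.92 and 3.41 in high termination. The termination values lay beyond those of both earlier periods in each direction. The loci were called on the contrast of the high termination and high growth libraries. The initiation and low strength libraries entered through the filter, the scaling and the shared spread. Over all tested loci the medians were 3.98 to 4.05 at high initiation, 4.12 to 4.14 in high growth and 3.92 to 4.11 in high termination. Low strength hens showed the same directions: the rises had medians of 5.14 to 5.27 in termination, against 3.75 to 3.96 in growth, and the falls had 3.61 to 3.74, against 4.86 to 4.95.

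**Figure D4:**
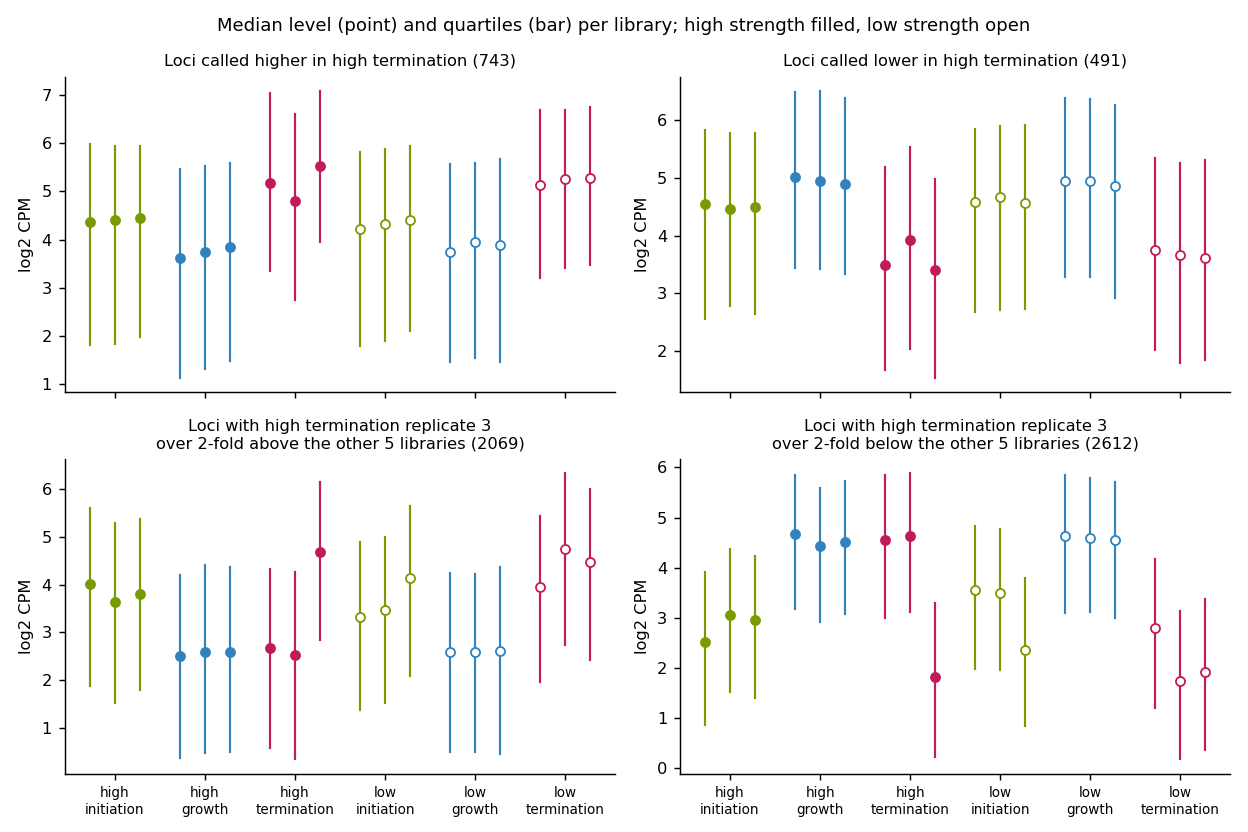
Median log2 CPM (points) and quartiles (bars) in each of the 18 libraries for the 743 loci that rose, the 491 that fell, and the 2069 and 2612 loci at which high termination replicate 3 lay more than 2-fold above or below the other 5 libraries. The order of the high termination and growth libraries follows from how each set was chosen. The low strength and initiation libraries entered only through the filter and the scaling and, for the called loci, the shared spread. On the 2069 loci the low strength medians are 3.95 to 4.74 in termination, against 2.59 to 2.61 in growth.

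Whether the change from growth to termination differed between the strength groups was asked by the interaction contrast in the same fit, since the groups share no library. Across all tested loci, Pearson's r between the log2 changes in high and low strength was 0.647 and Spearman's rho was 0.700, as a description over loci that are not independent replicates. Without high termination replicate 3 these values were 0.182 and 0.0732, and with replicate 3 as the only high termination library they were 0.881 and 0.908. In the low strength group 55.1% of loci were called, against 7.66% in the high strength group. The difference itself passed the test at 4 loci (0.0248%; edgeR), and 3253 loci had an unadjusted p below 0.05. DESeq2 called 547 loci for this difference and limma-voom with library weights 9503, and without high termination replicate 3 edgeR called 6997. The weight of high termination replicate 3 in limma-voom was 0.0482, the lowest of the 18 libraries. The count of 6997 comes from a fit without this library. Among the other libraries the limma-voom weights ran from 0.254 in low initiation replicate 3 to 9.51 in low termination replicate 3. The part of any weight in the count of 9503 was not tested. Other alternatives lowered the count: it was 2 with total-count scaling, and 0 with the replicate block and without high growth replicate 1 or 2, low termination replicate 2 or 3, or low growth replicate 2, with 2015 to 3477 loci at an unadjusted p below 0.05 (edgeR).

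At the 4 loci called for the difference, high termination replicate 3 lay within or near the range of replicates 1 and 2. The choice of loci by a test on these libraries favours this. Replicate 1 was further from the others at ENSGALG00000011219, and at Novel02318, with 3.67 CPM against 1.69 and 2.22 CPM in replicates 2 and 3. All 4 loci were also called without replicate 3, a setting that called 6997 of 16070 loci. In the 6 alternatives with 0 calls their edgeR adjusted p ran from 0.0614 to 0.145. ENSGALG00000011219 had 1.496, 3.82 and 3.65 CPM in high termination, and 0.290, 0.196 and 0.230 CPM in high growth (log2 change 3.61 ± 0.73, SE; adjusted p = 0.00661, edgeR). In low strength hens it moved the other way, with 0, 0.599 and 0.623 CPM in termination, against 6.17, 5.56 and 2.51 CPM in growth (log2 change −3.57 ± 0.71, SE; adjusted p = 0.00252, edgeR). It was the only one of the 4 called in opposite directions in the strength groups. Its counts were 4, 3 and 4 in high growth and 0, 6 and 7 in low termination, against a floor of 3. The sizes of both changes therefore rest on few counts. The locus Novel01467 fell in high strength hens to 8.77, 12.4 and 8.88 CPM in termination, against 37.6, 31.1 and 27.9 CPM in growth (log2 change −1.68 ± 0.18, SE; adjusted p = 4.98e-05, edgeR). Its low strength values were 37.5, 35.6 and 31.2 CPM in termination, against 30.6, 34.5 and 35.9 CPM in growth, and overlapped (log2 change 0.05 ± 0.17, SE; adjusted p = 0.824, edgeR).

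For ENSGALG00000028929 and Novel02318 the change was found in low strength hens. ENSGALG00000028929 had 34.1, 34.9 and 42.1 CPM in high termination, and 26.7, 17.9 and 39.0 CPM in high growth, values that overlapped (log2 change 0.41 ± 0.37, SE; adjusted p = 0.544, edgeR). Its low strength libraries had 1.13, 3.20 and 2.14 CPM in termination, against 28.4, 30.4 and 14.2 CPM in growth (log2 change −3.51 ± 0.43, SE; adjusted p = 1.68e-04, edgeR). Novel02318 had 3.67, 1.69 and 2.22 CPM in high termination, and 2.54, 3.47 and 2.99 CPM in high growth, which also overlapped (log2 change −0.25 ± 0.33, SE; adjusted p = 0.703, edgeR). In low strength hens it had 4.67, 10.1 and 5.43 CPM in termination, against 0.787, 0.959 and 1.05 CPM in growth (log2 change 2.84 ± 0.36, SE; adjusted p = 2.28e-04, edgeR).

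**Figure D5:**
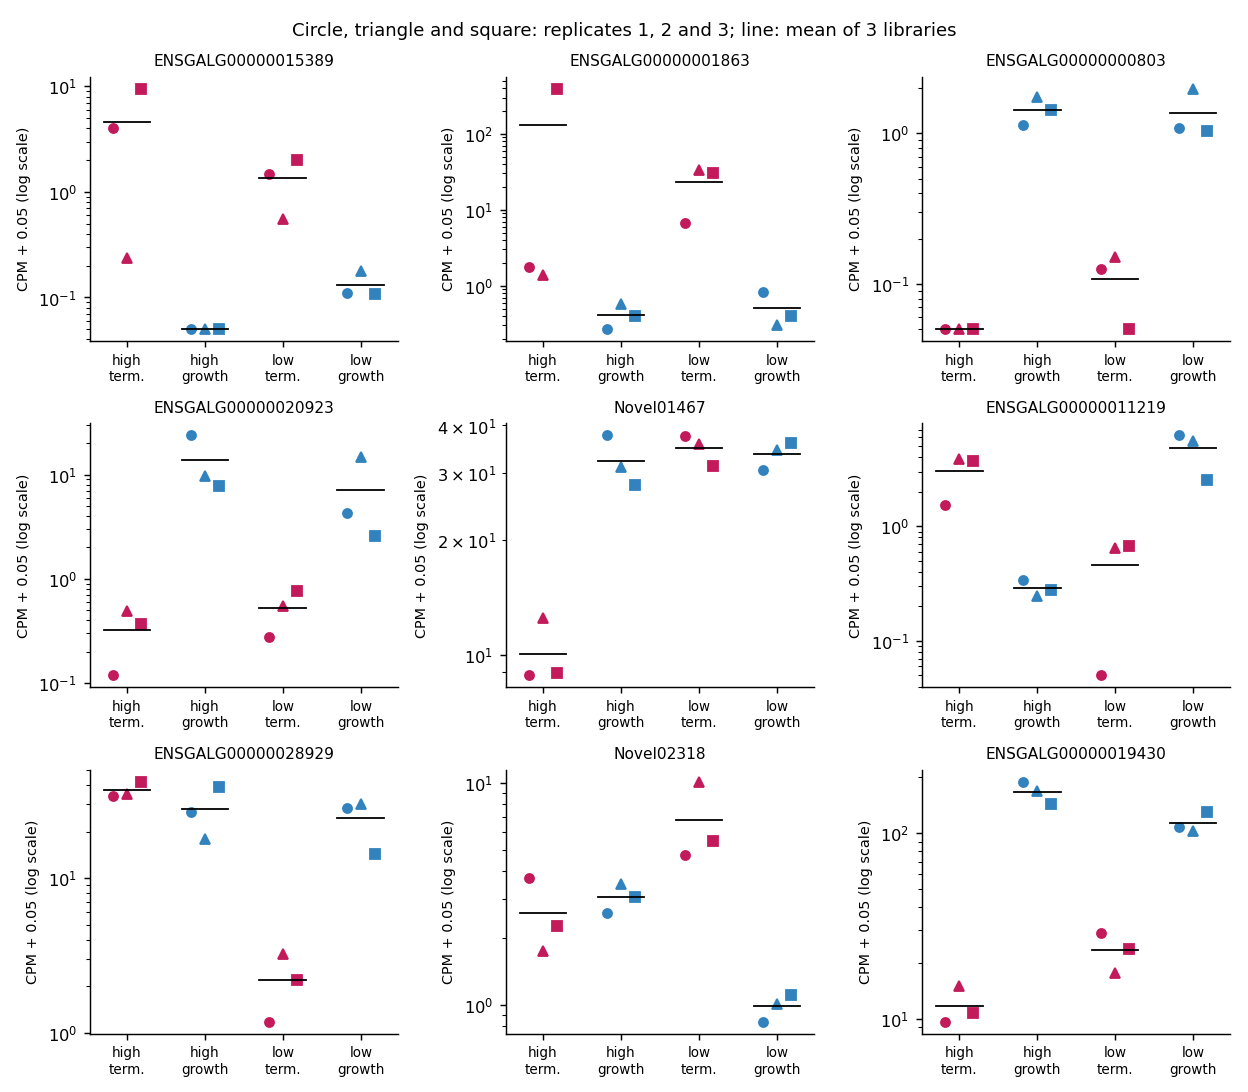
CPM plus 0.05 (log axis, own range in each panel) of the 9 loci named in the text, in the 3 libraries of high termination, high growth, low termination and low growth; circles, triangles and squares are replicates 1, 2 and 3 and lines are means. ENSGALG00000001863 has 386 CPM in high termination replicate 3 and below 2 CPM in replicates 1 and 2. At ENSGALG00000019430 and at Novel01467 the 3 high termination libraries lie together below those of high growth, which their choice by tests on these libraries favours.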

How the data were processed

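Total RNA of the uterus was isolated with Trizol and sequenced from Illumina TruSeq libraries, per the labels' protocols. The authors deposited counts per locus and a table of read statistics, from which the percent GC of mate 1 was used as deposited. The tools TopHat, TopHat2 and Bowtie2 and the build galGal4 are named, without role or version, per the submitters' processing notes. Loci were counted with a tool, strand setting and annotation not given in the sources used here. Paralogs, overlapping genes and antisense genes may therefore share reads. The count table is named as normalized, but was treated as counts: 0 values were fractional, no whole number below 459 was missing in any library, and median-ratio factors ran from 0.683 to 1.24. Of 25635 rows in the RefSeq table of assembly GRCg7b, 0 held an Ensembl identifier, so 0 loci were matched to a name and the lists fixed by symbol were not tested.

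Loci above 1 CPM in at least 3 libraries were scaled by TMM and tested with edgeR 4.0.16 (R 4.3.3, limma 3.58.1) with 1 coefficient per group over all 18 libraries; standard errors are the log2 change over the square root of F. Log2 CPM had a prior count of 2. The floor is 3 counts per library, 0.173 to 0.217 CPM in the growth and 0.188 to 0.238 CPM in the termination libraries after scaling, and covers counting error only. Replicate pairs differed by more than counting noise (chi-square per degree of freedom of at least 8.60), so each library counted once. Alternatives were DESeq2 1.42.0, limma-voom with library weights, total-count and upper-quartile scaling, no filter, a replicate block, fits to 6 or 9 libraries and leaving out single libraries; the fits to single termination libraries and leaving out low strength libraries in the high strength comparison, and the values without replicate 3 by level, locus class and fold, were added after seeing the data. Named loci were the 2 largest rises and falls meeting the stated rule, met by 477 and 387 genes. The loci called for the difference between strength groups and the single locus called in the fit to 6 libraries were named as well. Members, rule and lists were chosen with earlier results of these data known.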

Additional observations from a re-analysis of the deposited data

Results flagged for a closer look

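The 4 loci called for a difference between the strength groups in the change from growth to termination were singled out because the interaction contrast itself passed the test (edgeR quasi-likelihood test, adjusted over 16110 loci). The change in high minus that in low strength was 7.18 log2 units for ENSGALG00000011219, 3.92 for ENSGALG00000028929, −1.73 for Novel01467 (edgeR adjusted p = 0.0213 for each) and −3.08 for Novel02318 (edgeR adjusted p = 0.0494). Over the alternatives the adjusted p rose to at most 0.137, 0.131, 0.171 and 0.157, and the call was lost in 8, 9, 10 and 13 of 18. The size of the difference at ENSGALG00000011219 rests on few counts in high growth and in low termination. With 3 libraries in a group, no library was tested as an outlier of its own group.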

How the results depend on the processing

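In place of 1234 calls for termination minus growth in the high strength group, DESeq2 gave 2146, limma-voom 2166, the fit to the 9 high strength libraries 361 and the fit to the 6 libraries 1, with termination replicates 1, 2 and 3 alone giving 973, 407 and 8185; leaving out single libraries gave 709 to 2185, and the other alternatives stayed within 1.5 times. In place of 4 calls for the difference between strength groups, DESeq2 gave 547, limma-voom 9503, total-count scaling 2 and the replicate block 0, where 3477 loci had an unadjusted p below 0.05; leaving out single libraries gave 0 to 6997. For the low strength change, 8878 in all, no alternative moved the count by more than 1.5 times, with 5948 to 9045 on leaving out single libraries. The cause of these moves was not tested.

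The labels do not say whether replicate numbers pair the samples. The deviations of same-numbered termination and growth libraries correlated at 0.0993, −0.161 and 0.0241, and not every library correlated best with its own number. Deviations from means of 3 libraries cannot exclude a pairing. With the replicate block 648 loci rose and 471 fell. No named locus changed direction. ENSGALG00000001863 lost its call in 7 of 20 alternatives, including without each growth library (adjusted p of 0.0627 to 0.0694), without termination replicate 3 and in limma-voom (log2 change 2.29). ENSGALG00000000803 and ENSGALG00000020923 lost theirs in 1 of 20, the fit to 6 libraries. ENSGALG00000015389 lost its call in 0 of 18, but was not tested in the fits to 6 and to 9 libraries, which gave the fewest calls. Among high strength libraries it exceeded 1 CPM only in termination replicates 1 and 3 (4.01 and 9.36 CPM). It passed the filter with the help of low termination replicates 1 and 3 (1.43 and 1.96 CPM). The number of loci beyond 2-fold from growth ran from 1313 to 2618, 935 to 2059 and 5903 to 7913 in termination replicates 1, 2 and 3 under other prior counts, scaling or the nearest growth library as the reference.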
